A study of Mus musculus with 6 samples.

Results

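Genes that mark the identity of mesangial cells and pericytes were examined in cultured mouse mesangial cells with and without TGF-β1. The set was given by name and held 10 genes: Gata3, Thy1, Cspg4, Rgs5, Rgs4, Tbx18, Ptn, Nt5e, Mcam and Tcf21. A gene was taken where the symbol of a row matched its name, which found 9 of the 10 among 19730 rows. The study sequenced RNA from primary mouse mesangial cells (a culture of primary cells, not a cell line) by RNA-Seq, with 3 Control and 3 TGF-β1 libraries. All cells were grown at passage 3 to 6 in high glucose medium (25.5 mM) with 20% foetal bovine serum, so the Control cells carried these conditions too, and the treated cells received 10 ng/ml TGF-β1 (transforming growth factor beta 1) for 72 h. The age and strain of the mice are not given in the sources used here. The labels do not say whether the replicates were separate cultures, so p-values measure only the spread between these libraries, which may be technical.

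Mesangial cells hold the capillary loops of the kidney glomerulus together, and pericytes wrap small vessels elsewhere. Both descend from stromal progenitors and share a set of surface proteins, transcription factors and signalling regulators that is used to recognise them. TGF-β1 is a secreted growth factor that turns such cells into contractile cells that make matrix. The markers are of 4 kinds: transcription factors (Gata3, Tbx18, Tcf21), surface proteins (Thy1, Cspg4, Nt5e, Mcam), regulators of G-protein signalling (Rgs4, Rgs5) and a secreted growth factor (Ptn).

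Levels are in FPKM (fragments per kilobase of transcript, scaled by the mapped fragments of the library). The libraries held 10.1 to 11.1 M mapped fragments, as read from the steps between low FPKM values. The replicate 2 libraries deviated from their group means partly alike, with a correlation across genes of 0.232. It was 0.0921 for the replicate 1 libraries, 0.0853 for those of replicate 3, and -0.194 to 0.117 for a Control and a TGF-β1 library of different number. Genes are not independent replicates, so this is only a description. Against the label, Pdgfrb (37.5 ± 4.82 FPKM in Control cells, SD, n = 3), Acta2 (997 ± 89.7) and Vim (2191 ± 238) were well expressed, whereas the mesangial integrin Itga8 was listed at 0 to 0.174 FPKM and Des at 0.0995 to 0.55 FPKM in the Control libraries. The summed levels of markers of other cell types were lower with the treatment, and the sums were not tested. The summed level of the 8 epithelial markers with a row was 221 to 240 FPKM in Control and 70.8 to 74.1 FPKM in TGF-β1 libraries, nearly all of it Pax8, Cldn1 and Pax2, with Cdh1 and Krt8 at or below 0.173 FPKM in every library. Krt18 and Krt19 went the other way, from 0.279 ± 0.120 to 1.57 ± 0.219 FPKM and from 0.156 ± 0.150 to 1.06 ± 0.233 FPKM (SD, n = 3, limma adjusted p 0.00143 and 0.00563). The 9 podocyte markers summed to 43.5 to 48.6 and 18.1 to 18.2 FPKM, with Nphs1 at or below 0.398 FPKM in every library. The 7 macrophage markers summed to 87.0 to 114 and 9.03 to 11.9 FPKM, most of it Cd14, with Ptprc and Lyz2 at or below 0.0811 FPKM in every library. Csf1r of that list stood at 5.52 to 7.37 FPKM in Control and at 0.234 to 0.525 FPKM in TGF-β1 libraries. Cd68 stood at 2.02 to 3.67 and 1.78 to 2.68 FPKM. The 9 endothelial markers summed to 8.78 to 9.25 and 5.60 to 7.11 FPKM, with Cdh5 at or below 0.0244 FPKM in every library. Neither of the 2 endothelial markers with a mean of at least 1 FPKM was called. The part of these markers in the results below was not tested. In such bulk samples, fewer cells of a type and less RNA per cell cannot be told apart.

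Treatment with TGF-β1 changed 5 of the 9 measured markers, and it did so in both directions. Mcam, Cspg4 and Rgs5 were upregulated, Ptn and Rgs4 were downregulated, and Gata3, Thy1, Tbx18 and Nt5e did not pass the test (limma on log2(FPKM + 1), adjusted p under 0.05 over all rows tested). The test was run on rows whose mean FPKM reached 1, which kept Gata3, Tbx18, Ptn, Nt5e and Mcam. Of these 5, Mcam was called higher and Ptn lower, and over all 11898 rows tested 48.1% were called (24.5% higher and 23.6% lower). Thy1, Cspg4, Rgs5 and Rgs4 had lower means and were taken from the same fit without the filter, in which 3 of these 4 were called, Cspg4 and Rgs5 higher and Rgs4 lower. That fit called 30.5% of all rows (14.6% higher and 16.0% lower) and 11.7% of the 7832 rows with a mean under 1 (3.24% higher and 8.50% lower). The groups did not overlap for 6 markers (the 5 called ones and Nt5e), a pattern that 44.1% of all rows shared, 59.4% of those that passed the filter and 20.9% of those under it. With replicate 2 as a batch term, or in replicates 1 and 3 alone, 4 markers were called, and the one lost was Rgs5.

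**Figure D1:**
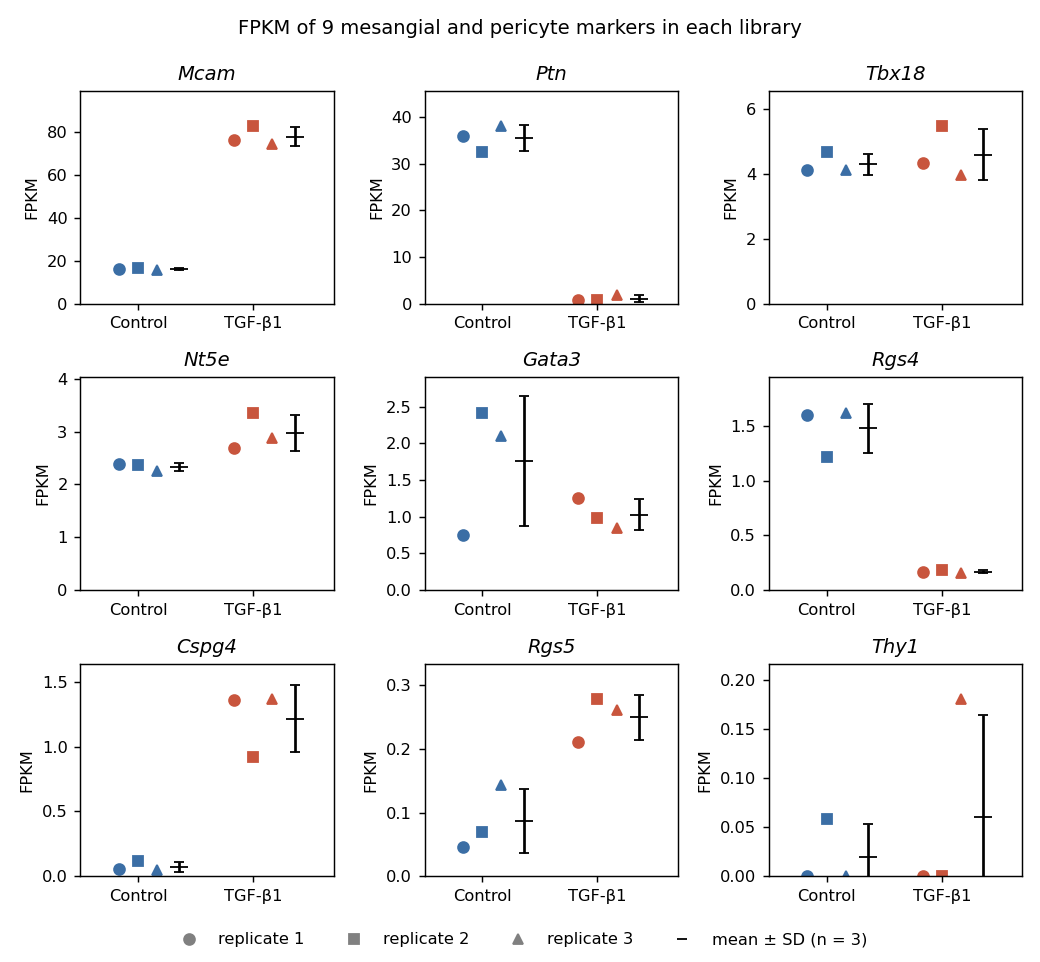
FPKM (vertical axis, linear and from 0, with its own scale in each panel) of the 9 measured markers in the 3 Control (blue) and 3 TGF-β1 (red) libraries, with symbols for replicates 1 to 3 and bars for the mean ± SD (n = 3), cut off at 0 for Thy1. Mcam, Cspg4 and Rgs5 lie higher in all 3 TGF-β1 libraries, Ptn and Rgs4 lower, and Gata3 and Tbx18 overlap between groups.

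The order of the markers by level differed between the groups. FPKM is per length, so levels can be set side by side between genes if the length used is that of the expressed transcripts. Each row names a single transcript, so orders of level are approximate. The named one has 1061 nt for Mcam (1 of 5), 479 nt for Vim (1 of 5) and 424 nt for Rgs19 (1 of 12). In Control cells the order was Ptn, Mcam, Tbx18, Nt5e, Gata3, Rgs4, Rgs5, Cspg4 and Thy1. The ranges of Nt5e, Gata3 and Rgs4 ran into each other, as did those of Rgs5, Cspg4 and Thy1. In TGF-β1-treated cells the order was Mcam, Tbx18, Nt5e, Cspg4, Ptn, Gata3, Rgs5, Rgs4 and Thy1. There, Cspg4, Ptn and Gata3 were not separated, nor were Rgs4 and Thy1. Among all rows of a library, Ptn stood above 85.8% to 87.6% of rows in Control cells and above 39.2% to 46.9% in treated cells. Mcam moved from above 74.9% to 75.8% of rows to above 92.9% to 93.6%. Cspg4 moved from above 17.6% to 22.3% of rows to above 41.9% to 44.4%. By the study's criterion for an expressed gene, an FPKM of at least 3, only 3 markers (Ptn, Mcam and Tbx18) were expressed in every Control library and 2 (Mcam and Tbx18) in every TGF-β1 library.

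**Figure D2:**
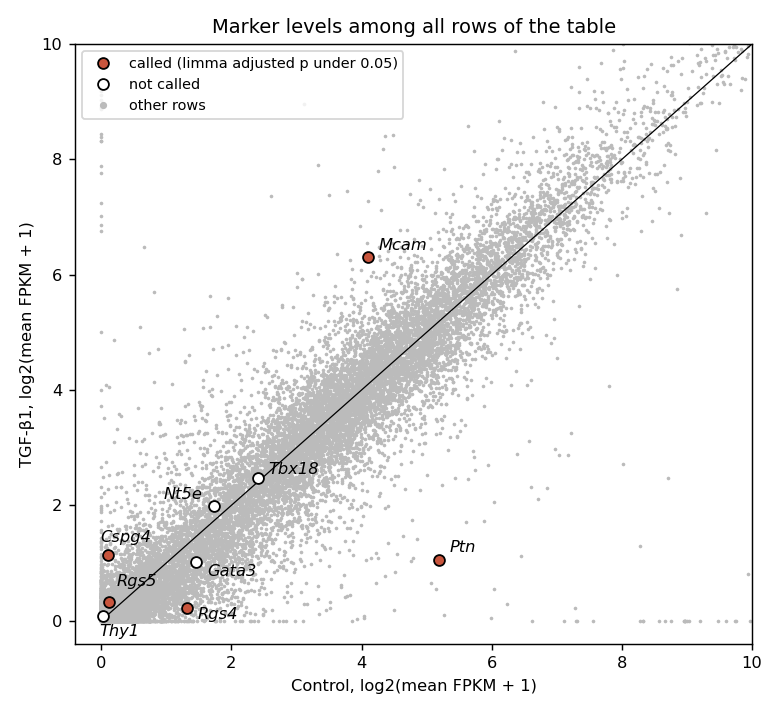
Mean level of every row in Control (horizontal) and TGF-β1 (vertical) libraries, both as log2(mean FPKM + 1) of 3 libraries and shown up to 10, with the 9 markers over all other rows (grey) and the line of equal level. Ptn lies far below the line and Mcam above it, while Tbx18 lies on it and Thy1 at the origin.

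The stretch before the start site is shown for the 5 markers that changed, to set the sequences of genes that rose beside those of genes that fell. Each line gives the 250 bases before the RefSeq start of the gene on GRCm38.p6 (not the build of the expression table), 5′ to 3′ on the strand of the gene. The stretches are chr9:56864854-56865103 for Cspg4 (plus strand), chr1:169655251-169655500 for Rgs5 (plus), chr9:44134408-44134657 for Mcam (plus), chr1:169747643-169747892 for Rgs4 (minus) and chr6:36810180-36810429 for Ptn (minus). Capitals mark matches, on either strand, to the SMAD box (CAGAC), the CCAAT box (CCAAT) and the TATA motif (TATAAA). The AP-1 motif (TGANTCA) and the TEAD motif (GGAATG) were searched in the same way. No match overlapped another.
Cspg4: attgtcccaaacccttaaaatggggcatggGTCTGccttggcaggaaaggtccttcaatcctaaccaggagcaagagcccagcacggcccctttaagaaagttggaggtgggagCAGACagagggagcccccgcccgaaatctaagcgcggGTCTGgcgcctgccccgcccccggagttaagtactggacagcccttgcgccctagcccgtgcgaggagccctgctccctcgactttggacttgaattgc
Rgs5: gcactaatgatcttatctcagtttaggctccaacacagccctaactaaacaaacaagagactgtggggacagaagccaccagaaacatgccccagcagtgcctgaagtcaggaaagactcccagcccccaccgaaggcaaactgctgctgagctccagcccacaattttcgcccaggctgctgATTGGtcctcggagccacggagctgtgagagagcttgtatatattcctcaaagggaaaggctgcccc
Mcam: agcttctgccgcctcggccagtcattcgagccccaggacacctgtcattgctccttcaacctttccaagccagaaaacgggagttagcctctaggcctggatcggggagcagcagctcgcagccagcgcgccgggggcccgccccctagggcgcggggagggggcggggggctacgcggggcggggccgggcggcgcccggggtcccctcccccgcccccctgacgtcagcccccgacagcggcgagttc
Rgs4: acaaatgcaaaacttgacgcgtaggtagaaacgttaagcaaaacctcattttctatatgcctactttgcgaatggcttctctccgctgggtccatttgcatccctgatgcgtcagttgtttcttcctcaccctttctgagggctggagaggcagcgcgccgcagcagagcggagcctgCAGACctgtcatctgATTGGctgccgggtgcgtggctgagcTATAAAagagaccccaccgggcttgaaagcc
Ptn: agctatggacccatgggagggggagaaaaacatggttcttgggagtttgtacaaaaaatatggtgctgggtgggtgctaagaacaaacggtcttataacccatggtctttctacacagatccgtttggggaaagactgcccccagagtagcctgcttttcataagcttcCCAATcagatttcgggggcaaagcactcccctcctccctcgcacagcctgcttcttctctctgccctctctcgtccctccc
The Cspg4 stretch held the SMAD box 3 times, beginning 220, 136 and 99 bases before the start. Rgs4 held 1 SMAD box (72 bases before the start), a CCAAT box (57) and a TATA motif (31). Rgs5 and Ptn each held 1 CCAAT box, at 67 and 81 bases, and the Mcam stretch, 73.6% G and C, held none of the 5 motifs. Of the markers not called, Nt5e held the SMAD box 2 times, Tbx18 held it 1 time and Gata3 held none. Tcf21, which was not measured, held it 3 times. Among 27025 mouse promoter stretches of the same length, at least 1 SMAD box was found in 42.1% and at least 1 CCAAT box in 34.5%. For the TATA motif this share was 13.0%, for the TEAD motif 12.6% and for AP-1 6.87%. A link between these motifs and the changes was not tested. A match is a run of letters and not a known site.

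Mcam had the largest increase among the markers on the log2(FPKM + 1) scale, and Cspg4 the largest as a ratio. It encodes CD146, an adhesion protein of vessel walls and pericytes (mm9 chromosome 9, 43942552 to 43950810, plus strand). It stood at 16.1, 16.6 and 15.7 FPKM in Control replicates 1 to 3 and at 76.6, 82.8 and 74.3 FPKM with TGF-β1. Every treated library was far above every Control library, and the libraries of a group lay close together. The means of 16.1 ± 0.437 and 77.9 ± 4.42 FPKM (SD, n = 3) differed 4.83-fold, a log2 change of 2.20 on the log2(FPKM + 1) scale (SE 0.0749, 95% interval 2.02 to 2.38, limma adjusted p 1.12e-05). The row names a transcript of 1061 nt annotated for nonsense-mediated decay, 1 of 5 of the gene, and it is not stated whether its value is that of the gene or of the transcript. Mcam overlaps the antisense lincRNA Gm10687 by 17 nt.

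Cspg4 encodes NG2, a proteoglycan used to recognise pericytes (chromosome 9, 56712911 to 56747677, plus strand, 1 transcript of 8050 nt). Its Control values were 0.0577, 0.115 and 0.0473 FPKM, and its TGF-β1 values 1.36, 0.918 and 1.37 FPKM. The gene was barely detected in Control cells and stayed low with treatment, but the groups lay far apart. At the depth of each library these values correspond to about 5, 10 and 4 fragments in Control and 117, 73 and 116 with TGF-β1. Summed over 3 libraries that is 19 fragments (exact Poisson interval 11.4 to 29.7) against 306 (273 to 342), intervals that cover counting error only. The mean rose 16.5-fold from 0.0735 ± 0.0367 to 1.21 ± 0.257 FPKM (SD, n = 3), with a log2 change of 1.04 (SE 0.104, 95% interval 0.78 to 1.29, limma adjusted p 0.000951). The log2 change understates a change at so low a level, and with a pseudocount of 0.1 it was 2.92.

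Nt5e encodes CD73, the surface enzyme that makes adenosine from AMP (chromosome 9, 88222447 to 88266927, plus strand). It stood at 2.38, 2.36 and 2.25 FPKM in Control and at 2.70, 3.36 and 2.87 FPKM with TGF-β1. All treated libraries lay above all Control libraries, by a small margin. The difference of the means, 2.33 ± 0.0703 and 2.98 ± 0.344 FPKM (SD, n = 3), did not pass the test (log2 change 0.25, SE 0.107, 95% interval -0.01 to 0.51, limma adjusted p 0.0974). Thy1, which encodes the glycoprotein CD90 of mesangial and other stromal cells (chromosome 9, 43851467 to 43856662, plus strand), was listed at 0, 0.0589 and 0 FPKM in Control and at 0, 0 and 0.180 FPKM with TGF-β1. This is about 1 fragment in Control replicate 2 and 3 fragments in TGF-β1 replicate 3, so no change was detectable at this depth (limma adjusted p 0.643), and no fold is given. Thy1 and Mcam lie 85.9 kb apart on chromosome 9 with 6 annotated genes between them.

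The genes around CD73 and the other surface antigens of stromal cells were set beside these markers. Over all rows tested, 24.5% rose and 23.6% fell, and no list was tested against these shares. Of 14 adenosine pathway genes, 8 were tested, of which 2 rose, 1 fell and 5 did not pass the test (median log2 change 0.09, against -0.02 over all rows tested). Pnp, a purine phosphorylase, rose from 24.7 ± 4.40 to 44.5 ± 2.25 FPKM (0.84 on the log2 scale, limma adjusted p 0.00332). Enpp1, a surface enzyme that cleaves ATP, fell from 8.79 ± 1.15 to 5.23 ± 0.549 FPKM (-0.65, limma adjusted p 0.00565). Entpd2, which also degrades extracellular ATP and was the most abundant of the list, stood at 132 ± 14.5 and 91.6 ± 21.6 FPKM (limma adjusted p 0.0564). Of 10 mesenchymal stromal surface antigens, 5 were tested, of which 2 rose and 2 fell (median log2 change -0.03). Itgb1, the β1 integrin chain, rose from 259 ± 9.96 to 1026 ± 16.4 FPKM (1.98 on the log2 scale, limma adjusted p 1.82e-05), and Ly6a (Sca-1) fell from 36.8 ± 7.07 to 9.12 ± 1.35 FPKM (-1.89, limma adjusted p 3.29e-04).

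Ptn had the largest decrease. It encodes pleiotrophin, a secreted growth factor that binds heparin (chromosome 6, 36665663 to 36761361, minus strand, 4 transcripts), and it was the most abundant marker of Control cells. Control libraries held 35.9, 32.6 and 38.1 FPKM and TGF-β1 libraries 0.754, 0.661 and 1.83 FPKM. All treated libraries were far below all Control libraries, and TGF-β1 replicate 3 was the highest of the treated ones. The mean was 32.8-fold lower with treatment, at 35.5 ± 2.78 and 1.08 ± 0.650 FPKM (SD, n = 3), with a log2 change of -4.17 (SE 0.214, 95% interval -4.69 to -3.66, limma adjusted p 4.13e-05). Without TGF-β1 replicate 3 the mean was 50.2-fold lower and the log2 change -4.42.

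Midkine, encoded by Mdk, is the only relative of pleiotrophin. It stood at 0.628, 1.42 and 1.33 FPKM in Control and at 0.958, 0.520 and 1.43 FPKM with TGF-β1, and the groups overlapped (log2 change -0.11, SE 0.240, 95% interval -0.70 to 0.47, limma adjusted p 0.722). The log2 ratio of Ptn to Mdk, with 1 added to each FPKM, was 4.50, 3.80 and 4.07 in the Control libraries, and it was -0.16, 0.13 and 0.22 in those with TGF-β1. Its means of 4.12 ± 0.356 and 0.06 ± 0.198 (SD, n = 3) differed by -4.06 (two-sided exact permutation test, p = 0.1, also 0.1 adjusted over 2 ratios). A comparison of 3 with 3 libraries cannot give a p below 0.1. The fall of Ptn was far larger than the spread of Mdk, so this ratio had to separate the groups. It restates the change of Ptn, and its p adds nothing to that change. Of 12 genes for midkine and pleiotrophin receptors (Mdk counted among them), 9 were tested, and 5 rose and 1 fell (median log2 change 0.40). Of all rows tested, 24.5% rose and 23.6% fell. Itgb3, the β3 integrin chain, rose from 1.57 ± 0.105 to 8.44 ± 0.534 FPKM (1.88 on the log2 scale, limma adjusted p 3.78e-05), while the proteoglycan Sdc4 fell from 55.7 ± 0.843 to 30.0 ± 1.55 FPKM (-0.87, limma adjusted p 2.22e-04). Lrp1, a large endocytic receptor and the most abundant of the list, stood at 223 ± 33.1 and 296 ± 50.8 FPKM and was not called (limma adjusted p 0.0930).

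Rgs4 and Rgs5 are neighbouring paralogs that moved in opposite directions. Both encode proteins that speed the shut-off of G-protein signals, and Rgs5 is widely used as a pericyte marker. Rgs5 lies at 171585632 to 171625944 (plus strand) and Rgs4 at 171671608 to 171677773 (minus strand) on chromosome 1, 45.7 kb apart with no annotated gene between them. Rgs4 stood at 1.60, 1.22 and 1.62 FPKM in Control and at 0.166, 0.180 and 0.156 FPKM with TGF-β1. The 3 treated libraries were nearly equal and all far below the Control libraries, and each rests on about 5 fragments. For Rgs4, 1 fragment was worth 0.0329 to 0.0361 FPKM, so this near equality does not show precision. Summed over 3 libraries, about 134 fragments in Control (exact Poisson interval 112 to 159) stood against 15 with TGF-β1 (8.40 to 24.7). The mean was 8.86-fold lower, at 1.48 ± 0.225 and 0.167 ± 0.0123 FPKM (SD, n = 3), with a log2 change of -1.08 (SE 0.0926, 95% interval -1.31 to -0.86, limma adjusted p 5.37e-04).

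Rgs5 was near the detection limit in both groups. It stood at 0.0465, 0.0698 and 0.143 FPKM in Control, about 2, 3 and 6 fragments, and at 0.211, 0.279 and 0.261 FPKM with TGF-β1, about 9, 11 and 11 fragments. All treated libraries lay above all Control libraries. Over 3 libraries there were 11 fragments in Control (exact Poisson interval 5.49 to 19.7) and 31 with TGF-β1 (21.1 to 44.0). The means of 0.0864 ± 0.0503 and 0.250 ± 0.0353 FPKM (SD, n = 3) differed 2.90-fold, with a log2 change of 0.20 (SE 0.0535, 95% interval 0.07 to 0.33, limma adjusted p 0.0336). The call was lost in 12 of 18 other settings. Among them were the fits without Control replicate 1 (limma adjusted p 0.0648), Control replicate 2 (0.0743), TGF-β1 replicate 2 (0.0720) or TGF-β1 replicate 3 (0.0761). The fit with replicate 2 as a batch term also lost it (0.0554). The log2 change stayed above 0 in all 18, but with the groups apart only the scalings could have turned its sign.

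The balance between the paralogs restates these changes. With Rgs5 higher and Rgs4 lower in every treated library, their ratio had to separate the groups. The log2 ratio of Rgs5 to Rgs4, with 1 added to each FPKM, was -1.31, -1.05 and -1.20 in the Control libraries, and it was 0.05, 0.12 and 0.13 in those with TGF-β1. Rgs4 was thus the higher of the pair in all Control libraries and Rgs5 in all treated ones. In each treated library this order rests on about 9 to 11 fragments of Rgs5 against 5 of Rgs4. The means of -1.19 ± 0.129 and 0.10 ± 0.0390 (SD, n = 3) differed by 1.29 (two-sided exact permutation test, p = 0.1, also 0.1 adjusted over 2 ratios, the smallest p that this design allows). That p was fixed by the separation of both genes and adds nothing to it. Of 19 other RGS genes, 5 were tested, and 2 rose and 2 fell (median log2 change -0.23), where 24.5% and 23.6% of all rows tested rose and fell. Among the 9 under the filter, 2 fell (Rgs2 and Rgs9), as did 8.50% of all rows under it. Rgs10, a small member of the family, fell from 48.2 ± 5.29 to 13.4 ± 2.01 FPKM (-1.78 on the log2 scale, limma adjusted p 1.70e-04). Rgs12 rose from 18.1 ± 3.02 to 25.8 ± 0.995 FPKM (0.50, limma adjusted p 0.0163) and Rgs19, the most abundant one over all 6 libraries (Rgs10 was higher in Control), from 39.7 ± 3.14 to 54.7 ± 6.11 FPKM (0.45, limma adjusted p 0.0147). In replicates 1 and 3 alone no RGS gene of the list was called higher, with limma adjusted p-values of 0.0848 for Rgs12 and 0.0611 for Rgs19, and leaving out TGF-β1 replicate 1 (Rgs12, 0.0604) or Control replicate 2 (Rgs19, 0.0507) also ended a call.

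**Figure D3:**
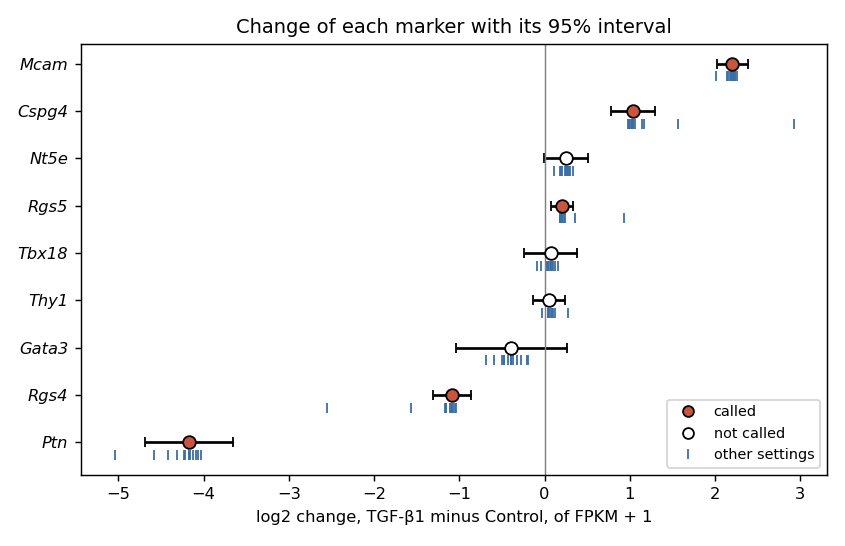
Change of each marker (horizontal axis, log2 of FPKM + 1, TGF-β1 minus Control) with its 95% interval from limma, and the change in the other settings tried as ticks under each point. Mcam, Cspg4 and Rgs5 lie above 0 and Rgs4 and Ptn below it in every setting, while the ticks of Tbx18 and Thy1 fall on both sides of 0. For the called markers only the scalings could have changed the side, since their groups did not overlap.

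None of the measured transcription factors passed the test. Gata3, a zinc finger factor that marks mesangial cells in the adult glomerulus (chromosome 2, 9778705 to 9811661, minus strand), stood at 0.756, 2.42 and 2.10 FPKM in Control and at 1.26, 0.978 and 0.846 FPKM with TGF-β1. Control replicate 1 was below all treated libraries and the other two Control libraries were above them. The means of 1.76 ± 0.882 and 1.03 ± 0.211 FPKM (SD, n = 3) gave a log2 change of -0.39 (SE 0.270, 95% interval -1.04 to 0.26, limma adjusted p 0.276). Without Control replicate 1 the log2 change was -0.69 and passed the test (limma adjusted p 0.0168), so that 1 library decided the call. Without Control replicate 2 it was -0.21 (limma adjusted p 0.577), and in replicates 1 and 3 alone -0.19 (limma adjusted p 0.671). Gata3 overlaps 4930412O13Rik and Gm13256 on the opposite strand and 9230102O04Rik on its own, and whether the FPKM estimate used strand is not stated, so its level is uncertain.

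Tbx18, a T-box factor of mural cells and their progenitors (chromosome 9, 87597635 to 87626095, minus strand), stood at 4.10, 4.67 and 4.10 FPKM in Control and at 4.34, 5.47 and 3.96 FPKM with TGF-β1. The groups overlapped, and in each group replicate 2 was the highest. The means were 4.29 ± 0.329 and 4.59 ± 0.783 FPKM (SD, n = 3), with a log2 change of 0.07 (SE 0.127, 95% interval -0.24 to 0.38, limma adjusted p 0.673). The interval does not show that the level was the same. Tbx18 and Nt5e lie 596 kb apart on chromosome 9 with no protein-coding gene between them. Tcf21, a bHLH factor of the kidney stroma and podocytes (chromosome 10, 22537085 to 22539934, minus strand), matched no row and was not analysed here.

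Relatives and partners of these factors were measured as well. Counts for the lists below stand beside 24.5% higher and 23.6% lower over all rows tested. Of 10 GATA factors and partners, 5 were tested, and none rose and 2 fell (median log2 change -0.26). Ldb1, an adaptor that bridges GATA complexes, fell from 104 ± 8.27 to 62.8 ± 15.9 FPKM (-0.75 on the log2 scale, limma adjusted p 0.0216), a call that was lost without Control replicate 1, 2 or 3 (limma adjusted p 0.0507, 0.0576 and 0.0651). Of 16 T-box genes, 3 were tested and 1 fell (median log2 change 0.00), which was Tbx6, a factor of early mesoderm (3.72 ± 0.926 to 1.09 ± 0.320 FPKM, -1.16, limma adjusted p 0.00369). Mga, the most abundant T-box gene, stood at 5.23 ± 0.320 and 5.72 ± 1.54 FPKM (limma adjusted p 0.709). Of 12 partners and relatives of Tcf21, 7 were tested, and 2 rose and 1 fell (median log2 change -0.23). Msc, a bHLH repressor, rose from 0.781 ± 0.109 to 3.45 ± 0.233 FPKM (1.32 on the log2 scale, limma adjusted p 2.49e-04), and Twist2 fell from 84.3 ± 20.2 to 33.9 ± 11.8 FPKM (-1.33, limma adjusted p 0.0123).

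**Figure D4:**
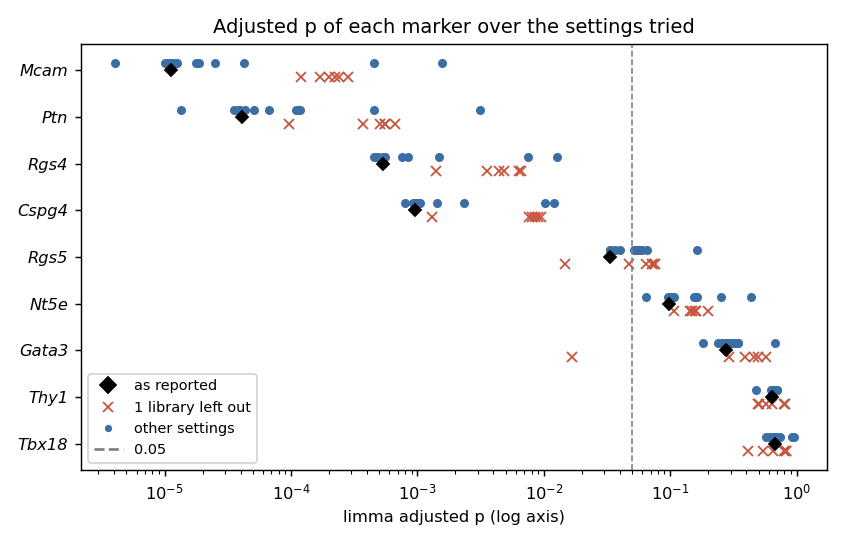
Limma adjusted p (horizontal log axis) of each marker as reported (diamonds), with 1 library left out (crosses) and in the other settings (dots), beside the threshold of 0.05. Mcam, Ptn, Rgs4 and Cspg4 stay left of the threshold throughout, Rgs5 lies on both sides of it, and Gata3 crosses it once, without Control replicate 1.

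The markers were compared with 32 other mesangial and pericyte genes, of which 27 had a row and 13 were tested. Of these 13, 4 rose and 6 fell (median log2 change -0.27), where 24.5% and 23.6% of all rows tested rose and fell. Under 1 FPKM in every library were 12 of the 27. The balance depended on the filter and the scaling. Of the 9 genes with a mean of 3 FPKM or more, 5 rose and 3 fell (median log2 change 0.37), and with rows of at least 300 nt scaled to a common sum 2 of the 13 rose and 7 fell. Of the 14 genes under the filter, 2 rose (Angpt1 and Gucy1b3) and 3 fell (Ednra, Mef2c and Tbx2) in the fit on all rows. That fit called 3.24% of all rows under the filter higher and 8.50% lower. Acta2, smooth muscle actin, had the largest log2 increase, from 997 ± 89.7 to 3887 ± 348 FPKM (1.96 on the log2 scale, limma adjusted p 8.64e-05), and Vim, an intermediate filament protein and the most abundant of the list over all 6 libraries (Acta2 was higher with TGF-β1), rose from 2191 ± 238 to 3436 ± 175 FPKM (0.65, limma adjusted p 0.00696). Anpep, the surface peptidase CD13, had the largest log2 decrease, from 2.08 ± 0.425 to 0.0299 ± 0.0307 FPKM (-1.57, limma adjusted p 4.08e-04). Foxd1, which marks the stromal progenitors of the kidney, fell from 2.52 ± 0.171 to 0.564 ± 0.152 FPKM (-1.17, limma adjusted p 6.77e-04), and Foxc1 from 48.4 ± 3.68 to 15.9 ± 1.15 FPKM (-1.55, limma adjusted p 7.06e-05). Pdgfrb, the receptor by which mural cells are most often recognised, fell from 37.5 ± 4.82 to 29.2 ± 0.751 FPKM (-0.34, limma adjusted p 0.0396), but this call was lost in 7 of 17 other settings, among them the fits without Control replicate 2 or 3 and without any 1 of the TGF-β1 libraries. Foxd1, Foxc1, Pdgfrb and the genes under the filter were named after their values were seen.

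**Figure D5:**
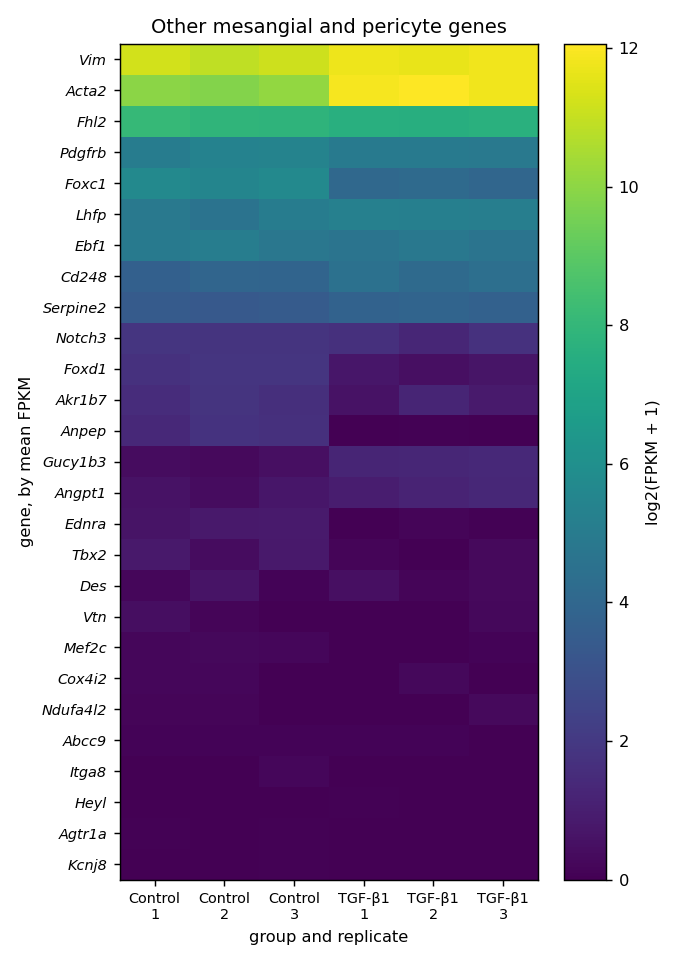
Level of the 27 other mesangial and pericyte genes with a row (vertical, by mean FPKM) in each library (horizontal), coloured by log2(FPKM + 1). Acta2 and Vim are highest and brighter with TGF-β1, Foxc1, Foxd1 and Anpep are darker with it, and the lower part of the list is near 0 in all 6 libraries.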

How the data were processed

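RNA-Seq was analysed in 3 Control and 3 TGF-β1 libraries of mouse mesangial cells, grouped by their treatment labels. Alignment by the authors was to mm9 (TopHat2 2.0.11 per the submitters' processing notes) after a quality filter on reads, with Cufflinks for FPKM. The deposited values are FPKM with no scaling between libraries stated. The study tested counts, which were not used here. An exact 0 in such a table can be a failed estimate.

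The test was that of limma 3.58.1 (R 4.3.3, lmFit and eBayes with trend, two-sided) on log2(FPKM + 1) over all rows whose mean FPKM reached 1, with Benjamini-Hochberg adjustment and a threshold of 0.05, and markers under that filter came from the same fit on all rows. Fold changes on that scale understate those of low genes. Folds are ratios of mean FPKM. In simulated normal values (11898 rows), 100 rows were changed by 1 on the log2 scale and 100 by 2. Of these, 78% and 97% were recovered, and 5.41% of calls were false. Rows under the filter were not simulated, and far more of the real rows were called (48.1%), so these rates may not hold for the data. Fragment numbers were read from the steps of FPKM values up to 0.6 in rows of at least 500 nt with an assumed fragment length of 200 nt, and 99.4% to 99.9% of 840 to 929 values per library came out whole within 0.1 fragment. They are approximate for genes with several transcripts, and intervals on them cover counting error only.

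Gene positions are those of GENCODE M1 (mm9). Promoter sequences are from RefSeq (GRCm38.p6), where 9 of the 10 markers matched. The markers and gene lists were chosen with earlier results of these data known. All markers were named, and from each other list the member with the largest increase and decrease among the called genes and the most abundant one over all libraries, plus Mdk. Other genes of the lists, such as defining markers of a cell type at or near 0, were named after their values were seen. The genes most like a marker were those with the smallest Euclidean distance in log2(FPKM + 1). Pseudocount, filter, scaling, trend, robust fit, replicate 2 and single libraries were varied. Scripts ran in Python 3.11.15 with pandas 2.3.3, numpy 2.4.6, matplotlib 3.10.9 and scipy 1.17.1.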

Additional observations from a re-analysis of the deposited data

How the results depend on the processing

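Mcam, Cspg4, Rgs4 and Ptn were called in all alternatives tried, with log2 changes of 2.02 to 2.26, 0.98 to 2.92, -2.56 to -1.04 and -5.04 to -4.03. The fits without trend, with a robust spread, with a block or batch term and with another threshold leave the log2 change as it is by construction, and a stricter filter leaves markers under the filter as they are. Nt5e was called in none of 19 (limma adjusted p 0.0646 to 0.438). Rgs5 also lost its call with a pseudocount of 0.1 (0.94 on the log2 scale, limma adjusted p 0.0588), with rows of at least 300 nt scaled to a common sum (0.18, 0.0598), without trend (0.0543), with a robust fit (0.0516), in replicates 1 and 3 alone (0.164) and at a threshold of 0.01. The change of Tbx18 turned to -0.0872 with the common-sum scaling and ranged from -0.0390 (without TGF-β1 replicate 2) to 0.152 with 1 library left out, and that of Thy1 from -0.0275 (without TGF-β1 replicate 3) to 0.0921, none of them called. The count of called markers was 4 or 5 throughout (4 to 5 with 1 library left out), and the markers without overlap numbered 5 to 7 (6 to 7 with 1 library left out). Without Control replicate 1 the count of called markers was 5, but Gata3 was among them and Rgs5 was not. Among all genes, 5721 were called, 3672 at an adjusted p under 0.01 and 4419 to 5446 with 1 library left out. The common-sum scaling shifted the median change of all genes from -0.02 to -0.19, and 2021 of 5944 called genes were then higher, against 2911 of 5721. The cause of these shifts was not tested.

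Of the other genes, with alternatives chosen after seeing the data, Mga turned to -0.0776 with the common-sum scaling and -0.126 in replicates 1 and 3, and Mdk to 0.163 in replicates 1 and 3. With 1 library left out, Mga ranged from -0.0863 (without TGF-β1 replicate 2) to 0.241 and Mdk from -0.295 to 0.0597 (without TGF-β1 replicate 2), none of them called. Entpd2 was called in 5 of 17 alternatives and Lrp1 in 3. Rgs12 and Rgs19 lost their calls with the common-sum scaling (limma adjusted p 0.0508 and 0.0629). Called genes of the GATA list fell to 0 without Control replicate 1 or 3. Those of the adenosine list numbered 3 to 5 and those of the Tcf21 list 2 to 5.

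Replicate numbers were not taken to pair the libraries in the main fit. The deviations of same-numbered libraries correlated at 0.0921, 0.232 and 0.0853, and those of different number at -0.194 to 0.117. Such correlations across genes cannot decide whether the libraries were paired. With the numbers as a replicate block, 5391 genes and 4 markers were called, Rgs5 being lost (limma adjusted p 0.0651). The differences of the log2 ratios, 1.29 (Rgs5 to Rgs4) and -4.06 (Ptn to Mdk), cannot change under the block. Control replicate 1 correlated best with TGF-β1 replicate 3 (0.117). The ratio differences ranged from 1.23 to 3.49 and from -4.82 to -3.87 over the settings, and from 1.23 to 1.35 and -4.22 to -3.87 with 1 library left out. Depth limits Thy1 and Rgs5, for which 1 fragment is worth 0.0588 to 0.0644 and 0.0232 to 0.0254 FPKM.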

Other observations

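The genes whose levels over the 6 libraries were most like those of Mcam on the log2(FPKM + 1) scale were Sqle, an enzyme of cholesterol synthesis (Euclidean distance 0.357, 18.2 ± 2.05 FPKM in Control and 78.9 ± 3.19 FPKM with TGF-β1, SD, n = 3), Nucb2 (0.363, 16.4 ± 2.47 and 77.7 ± 1.09 FPKM) and Htra1, a secreted protease (0.388, 16.8 ± 2.98 and 80.9 ± 5.40 FPKM). Those most like Ptn were Cldn2, a tight junction claudin (0.918, 32.5 ± 0.831 and 0.579 ± 0.0251 FPKM), Figf, which encodes VEGF-D (0.924, 26.7 ± 5.22 and 1.13 ± 0.388 FPKM), and Nid2, a basement membrane protein (0.947, 26.0 ± 3.46 and 1.05 ± 0.183 FPKM).

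Several markers of other cell types that the cultures might hold also differed. All 6 podocyte markers that were tested fell (median log2 change -0.75, against -0.02 over all rows tested), where 23.6% of all rows tested were lower. Cdkn1c, a cell cycle inhibitor, fell from 13.0 ± 0.468 to 1.33 ± 0.155 FPKM (-2.59 on the log2 scale, limma adjusted p 1.25e-05), and Synpo, an actin-binding protein of podocyte processes, from 12.3 ± 0.644 to 7.88 ± 0.569 FPKM (-0.58, limma adjusted p 0.00242). All 3 epithelial markers that passed the filter fell, among them Pax8 (120 ± 15.4 to 27.1 ± 2.40 FPKM, -2.10, limma adjusted p 5.77e-05), while under the filter Krt18 and Krt19 rose (1.01 and 0.84 on the log2 scale) and Lrp2 fell (-0.97, limma adjusted p 0.00369). Of the macrophage markers tested, 2 of 3 fell. Cd14 went from 94.3 ± 13.6 to 7.71 ± 0.819 FPKM (-3.45 on the log2 scale, limma adjusted p 1.72e-05). Csf1r went from 6.27 ± 0.979 to 0.411 ± 0.156 FPKM (-2.36, limma adjusted p 8.56e-05). Cd68 was not called (limma adjusted p 0.393). Neither of the 2 endothelial markers tested was called, with Egfl7 at 4.52 ± 1.14 and 3.03 ± 0.742 FPKM (limma adjusted p 0.110). Among the other listed genes under the filter, Ada of the adenosine list rose, and Cd34 of the stromal antigens, Plvap of the endothelial markers and Tbx2 of the T-box genes fell in the fit on all rows (limma adjusted p 0.0465, 0.0354, 0.0407 and 0.0414). Pax8, Egfl7, Rgs10, Rgs12, Ldb1, Lrp1, Msc, Entpd2 and Mdk overlap other annotated genes, which makes their levels uncertain. The same holds for other genes named above, among them Plvap, Cd34, Ednra, Angpt1, Pax2, Nphs1, Itga8, Des and Csf1r.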
